A study of Mus musculus and Rattus norvegicus with 32 samples.

Results

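The 6 genes of this account make and store glucose in the liver, and were followed across trichloroethylene (TCE) treatment of mice and rats. They are Pck1, Fbp1, G6pc and Slc37a4 of glucose production, and Gys2 and Pygl of glycogen turnover. Members were the probe sets whose annotation names 1 of these genes and no other: 4 of 12422 probe sets on the mouse arrays (Pck1, Fbp1, G6pc and Slc37a4) and 6 of 8740 on the rat arrays (Pck1, Fbp1, Gys2, Pygl and 2 for Slc37a4). In rat, 2 further probe sets list G6pc1 together with other genes, 3 symbols each, and were not used. No filter was applied, so each of the 10 probe sets was tested.

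The series asked how the liver response to TCE, a chlorinated solvent, differs between the species. Male B6C3F1 mice and male SD rats received 1500 mg of TCE per kg body weight in corn oil by gavage, or corn oil alone, on 1 day (age 8 weeks) or daily over 14 days (age 10 weeks). Collection of the livers followed 18 h after the final dose and gave 8 groups of 4 arrays, 32 in all. The animals had free access to chow, and the labels mention neither a fast nor the hour of collection. Corn oil was given to every group, so each comparison shows the solvent on top of the oil. Nothing in the labels ties an array to a separate animal, and the p-values thus cover only the spread among these samples, part of which may be technical.

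In a fasting liver, phosphoenolpyruvate carboxykinase (Pck1) turns oxaloacetate into phosphoenolpyruvate, and fructose-1,6-bisphosphatase (Fbp1) reverses the committed step of glycolysis. Glucose 6-phosphate then enters the endoplasmic reticulum through the transporter Slc37a4, where glucose-6-phosphatase (G6pc is its catalytic subunit) releases free glucose. Liver glycogen synthase (Gys2) lays glucose down as glycogen and liver glycogen phosphorylase (Pygl) takes it off again. Glucagon, glucocorticoids and insulin act on several of these genes through cAMP response elements, forkhead factors and nuclear receptors near their starts.

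The proximal promoters of Pck1 and Slc37a4, the genes that passed the test in at least 1 comparison, are shown with that of G6pc, which acts together with Slc37a4. They are the 250 bases before the start on the gene's strand in mouse, from RefSeq on GRCm38.p6. Capitals mark the 5-base core of a cAMP response element, TGACG or its reverse complement CGTCA.
Pck1, chr2:173152823-173153072, plus strand: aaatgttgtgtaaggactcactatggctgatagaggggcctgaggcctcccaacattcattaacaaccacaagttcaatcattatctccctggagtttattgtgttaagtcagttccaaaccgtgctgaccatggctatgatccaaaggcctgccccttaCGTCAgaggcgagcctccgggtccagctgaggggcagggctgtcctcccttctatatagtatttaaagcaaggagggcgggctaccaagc
Slc37a4, outermost of 3 listed starts, chr9:44396696-44396945, plus strand: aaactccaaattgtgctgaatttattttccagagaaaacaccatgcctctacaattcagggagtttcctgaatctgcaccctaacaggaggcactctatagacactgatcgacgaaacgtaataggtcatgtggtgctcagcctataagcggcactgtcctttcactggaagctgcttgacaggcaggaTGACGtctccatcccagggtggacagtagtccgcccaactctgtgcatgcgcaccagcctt
G6pc, chr11:101367466-101367715, plus strand: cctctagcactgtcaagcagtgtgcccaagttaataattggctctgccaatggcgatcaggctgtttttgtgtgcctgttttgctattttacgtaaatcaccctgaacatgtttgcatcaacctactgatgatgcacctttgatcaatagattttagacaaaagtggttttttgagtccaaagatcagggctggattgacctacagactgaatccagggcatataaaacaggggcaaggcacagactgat
The core lay at -90 to -86 in Pck1 and at -61 to -57 in Slc37a4, counted from the base before the start as -1. The G6pc window held none, but it held the forkhead core TGTTT or AAACA 4 times, the nuclear receptor core AGGTCA or TGACCT once at -54 to -49 and TATAAA at -29 to -24. Slc37a4 held the forkhead core at -215 to -211 and the nuclear receptor core at -127 to -122, while Pck1 held neither word. Of 32851 mouse windows of this length, 17.8% held the cAMP core, 46.4% the forkhead core, 14.0% the nuclear receptor core and 12.4% TATAAA (or TTTATA), on either strand. In G6pc the TATAAA match overlaps the last forkhead match, and no other matches named here overlap. At the other 2 listed Slc37a4 starts the cAMP core occurred 2 times and 0 times. Pygl, which passed in no comparison, held the cAMP core at -44 to -40 and the nuclear receptor core at -128 to -123. The Fbp1 window held none of these words, and no Gys2 window was among those used. As Pygl held it, the cAMP core was not particular to the genes that passed in either species. The windows are of mouse, while Pck1 passed in rat alone and Pygl was measured in rat alone. A match is a description of letters, and the arrays did not measure binding.

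Each deposited value is a ratio, scaled within a species and schedule so that the 4 oil arrays have a median of 1 for every probe set. A value of 0.5 therefore means 1 array at 50% of that median, and levels cannot be compared between genes, schedules or species. For the same reason the labelled tissue could not be checked against the level of its markers. Fold changes below come from means of log2 ratios, with limma standard errors over the 16 arrays of a species and p-values adjusted over its whole table. They were made on the deposited scaling; with quantile normalization none of the member calls below was kept. The called rat estimates then stayed near their size, at -1.05 and -0.95 for Slc37a4 after 1 dose and -1.38 and -1.33 for Pck1 after single and repeated doses (adjusted p 0.163 to 0.296), while that of repeated-dose mouse Slc37a4 went from -0.76 to -0.43.

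Some arrays stand apart. The log2 ratio of the Gapdh control probe sets, 3' over 5', is high where more 5' ends are lost than on the oil arrays. It is made from the deposited ratios, so it is relative to the oil arrays of that species and schedule. The absolute loss on any array is unknown. Below, an array with 5' loss is one with a value above 1, and one without it may still have lost 5' ends. The value exceeded 1 on 3 of 4 mouse TCE arrays after each schedule and on 1 mouse repeated-dose oil array. In rat it did so on 1 and 2 TCE arrays after single and repeated doses. Exocrine pancreas and skeletal muscle transcripts were high on rat single-dose oil array 3, with mean log2 ratios of 5.35 and 3.30 against at most 0.12 on the other 3 oil arrays. Pancreas transcripts were also high on mouse single-dose oil array 3, on TCE arrays 3 and 4 of that schedule (3.02 to 4.07) and on mouse repeated-dose TCE array 1 (2.31). Over all probe sets the median change was -0.09 and -0.15 in mouse after single and repeated doses, and 0.14 and 0.04 in rat. The split of calls into higher and lower depended on this shift. With each array centred on its median, mouse calls went from 517 higher and 514 lower to 721 and 355 after 1 dose, and from 278 and 1053 to 475 and 506 after repeated doses. Rat single-dose calls went from 106 and 44 to 77 and 107, and the species calls from 46 and 83 to 110 and 37 after 1 dose and from 61 and 260 to 88 and 135 after repeated doses. Centring took rat single-dose Slc37a4 to -1.15 and -1.04 and rat Pck1 to -1.53 and -1.65, with each call kept (adjusted p 0.0126 to 0.034).

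**Figure D1:**
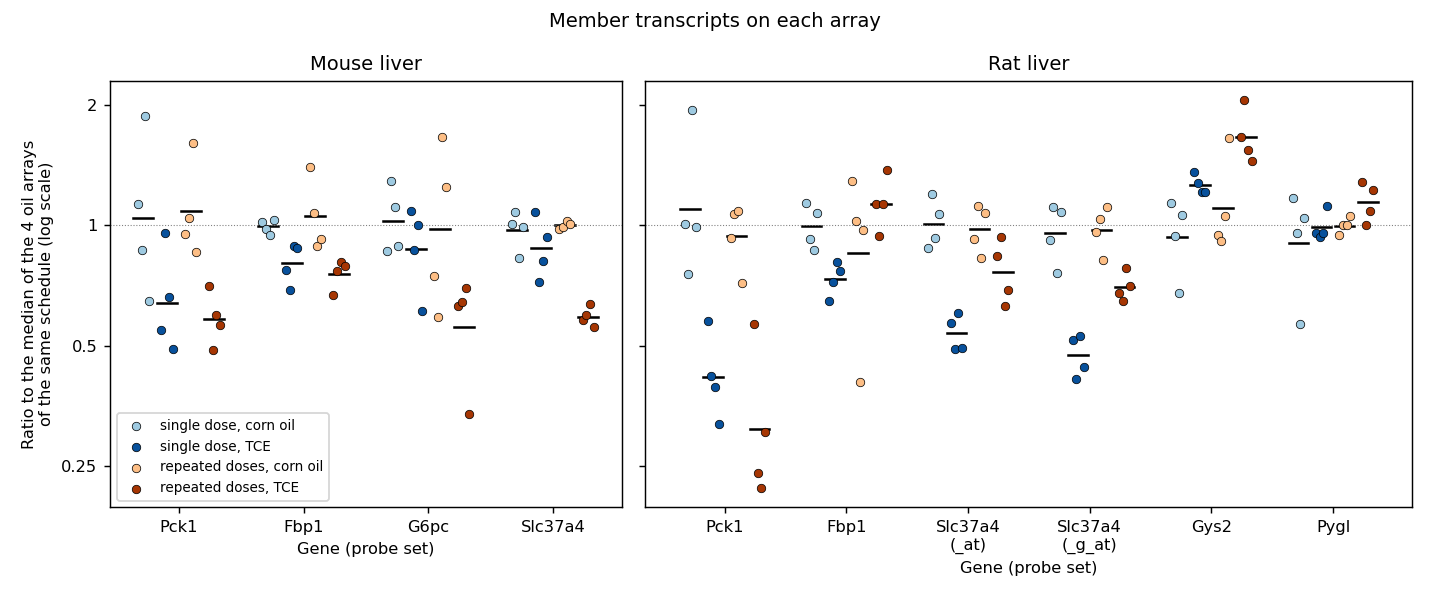
Ratio of each member probe set to the oil median of its schedule (log axis) on each array of mouse and rat liver; points are arrays and bars geometric means of 4. Slc37a4 on mouse repeated-dose TCE arrays sits between 0.556 and 0.636, below all 4 oil arrays, and rat Pck1 TCE arrays lie at 0.575 or below after both schedules.

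Slc37a4, the transporter that brings glucose 6-phosphate to the enzyme that releases glucose, fell in mouse liver after repeated doses and in rat liver after 1 dose. On mouse repeated-dose arrays the 4 oil ratios were 0.979, 0.992, 1.028 and 1.008, and the 4 TCE ratios were 0.58, 0.595, 0.636 and 0.556. The groups did not overlap, and their SD (log2, n = 4) was 0.030 on oil and 0.081 on TCE arrays. The change was -0.76 ± 0.14 (log2 ± SE, n = 4 and 4), or 0.59 of the oil level (limma adjusted p = 0.00641, and 0.00497 with the Gapdh value as a covariate). After 1 dose in mouse the TCE ratios of 1.08, 0.723, 0.814 and 0.937 overlapped the oil range of 0.829 to 1.084, with a change of -0.15 ± 0.14 (95% interval -0.45 to 0.16, adjusted p = 0.573). The lowest of them, 0.723, was the TCE array without 5' loss. Without the arrays of 5' loss the single-dose change was -0.43 from that 1 TCE array (adjusted p = 0.475), and with the Gapdh value as a covariate it was -0.27 (adjusted p = 0.489). The repeated-dose effect exceeded the single-dose effect by -0.61 ± 0.20, which did not pass (adjusted p = 0.121); 0 of 4 mouse members passed in that contrast, beside 0.877% of all probe sets.

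Of the 4 mouse members, Slc37a4 was the 1 called after repeated doses, when 8.48% of all mouse probe sets were called lower, and 0 of 4 were called after 1 dose (4.14% of all lower; 1 of 4 at an unadjusted p under 0.05). The TCE array without 5' loss read 0.58, within the range of the 3 with it, and the oil array with 5' loss read 0.979, the lowest of the 4 oil arrays. Without all mouse arrays of 5' loss, those of both schedules, the change was -0.80, from 1 TCE array assumed to vary like the other groups. Hepatocyte markers were lower on the same TCE arrays: 3 of 6 passed as lower and 0 as higher, with a mean log2 ratio of -0.62 to -0.44 against -0.31 to 0.21 on oil arrays. Of Kupffer cell markers 2 of 9 passed as lower, and all 9 had lower estimates (median -0.55). Of endothelial markers 1 of 7 passed as lower, and 6 of 7 had lower estimates (median -0.44). The part of these markers in the result was not tested. In whole liver RNA, fewer cells of a type and less RNA per cell cannot be told apart. Quantile normalization gave -0.43 (adjusted p = 0.412) and centring each array on its median -0.60 (adjusted p = 0.0209). Apart from leaving out 1 array, 9 alternatives were run for this Slc37a4 change. The call was kept in 6 of them and lost in 3.

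In rat, 2 probe sets built on the same Slc37a4 sequence record gave like values and are not independent. After 1 dose the probe set ending in _g_at read 0.918, 1.115, 0.762 and 1.082 on oil arrays and 0.517, 0.413, 0.529 and 0.441 on TCE arrays. The other read 0.876 to 1.198 on oil arrays and 0.489 to 0.604 on TCE arrays. Neither pair of groups overlapped. The changes were -1.02 ± 0.17 (adjusted p = 0.0154) and -0.91 ± 0.18 (adjusted p = 0.024), or 0.493 and 0.531 of the oil level. Without the oil array rich in pancreas and muscle transcripts they were -1.13 (adjusted p = 0.012) and -0.95 (adjusted p = 0.0363). The _g_at call held whichever array was left out (adjusted p 0.012 to 0.0468), while the other was lost without oil 2, oil 4, TCE 1, TCE 2 or TCE 4 (adjusted p at most 0.0902). Only TCE array 4 had 5' loss in this group, where it read 0.441 (_g_at) against 0.413 to 0.529 on the other 3. With the Gapdh value as a covariate the _g_at change was -1.03 (adjusted p = 0.0189), and without all rat arrays of 5' loss it was -0.99 (adjusted p = 0.0591). Of 8 hepatocyte markers 0 passed, with mean log2 ratios of -0.34 to -0.13 on TCE and -0.15 to 0.14 on oil arrays. Lower estimates were found for 7 of these 8 (median -0.24), beside a median of 0.14 over all rat probe sets. Kupffer cell markers had 0 of 5 passing and 4 of 5 with lower estimates (median -0.50). Endothelial markers had 0 of 3 passing and all 3 with lower estimates (median -0.32). The part of these markers in the result was not tested.

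On rat repeated-dose arrays the Slc37a4 ratios lay nearer to 1. The _g_at probe set read 0.679, 0.648, 0.781 and 0.707 on TCE arrays against 0.818 to 1.115 on oil arrays, with a change of -0.48 ± 0.17 (95% interval -0.84 to -0.11, adjusted p = 0.136). The other read 0.628 to 0.934 on TCE arrays against 0.83 to 1.121, a change of -0.36 ± 0.18 (adjusted p = 0.286). The effects of the schedules differed by 0.54 ± 0.24 and 0.55 ± 0.25 (repeated minus single dose), neither past the threshold (adjusted p = 0.503 and 0.519). For that contrast 0 of 8740 rat probe sets passed, with 818 at an unadjusted p under 0.05.

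The species were then compared directly on the 3 genes measured in both, within a fit of 3056 shared genes. For Slc37a4 after 1 dose, the mouse change was less negative than the rat change by 0.87 ± 0.21 on the log2 scale (95% interval 0.45 to 1.29, adjusted p = 0.014). The transcript stood at 0.902 of oil in mouse and 0.493 in rat. The call held whichever array was left out (adjusted p 0.005 to 0.0434), but in only 5 of the 9 other alternatives. It was lost with quantile normalization (1.03, adjusted p = 0.142) and, without the arrays of 5' loss, the difference was 0.56 with 1 mouse TCE array left (adjusted p = 0.374). Of the 3 genes 1 was called in this contrast, where 4.22% of all shared genes were. After repeated doses, where 10.5% of shared genes were called, 0 of the 3 passed, and Slc37a4 differed by -0.28 ± 0.21 (95% interval -0.71 to 0.14, adjusted p = 0.398). A contrast of species by schedule was not tested.

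**Figure D2:**
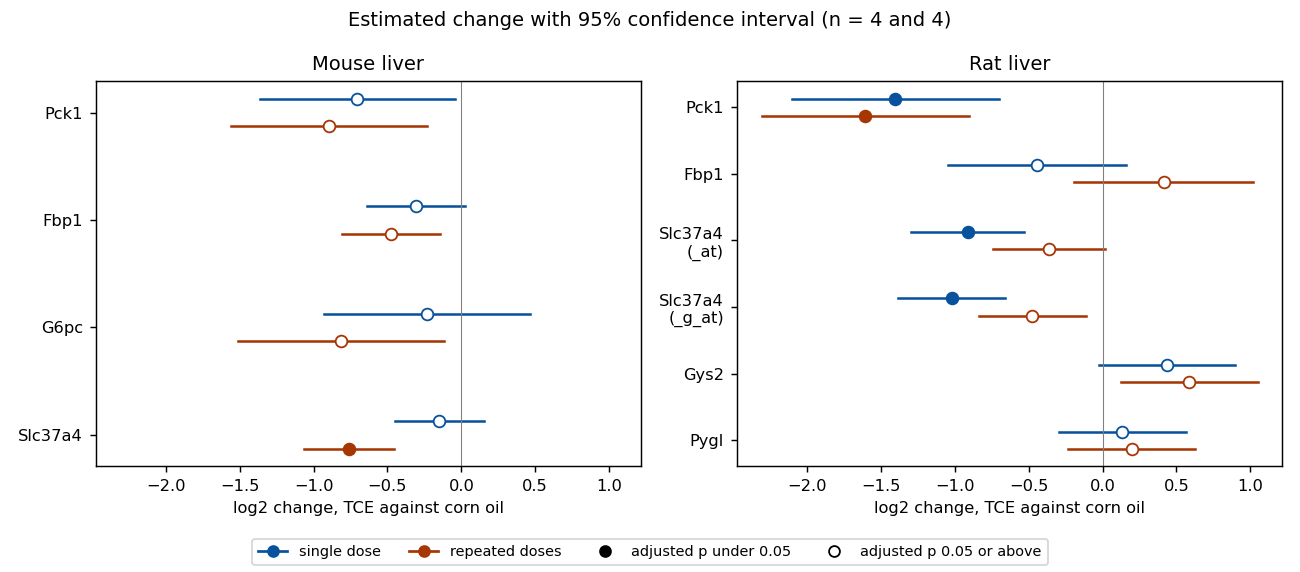
Log2 change of each member probe set, TCE against corn oil, with its 95% confidence interval from limma (n = 4 and 4), by species and schedule; filled points have an adjusted p under 0.05. Filled points are Slc37a4 in mouse after repeated doses, both Slc37a4 probe sets in rat after 1 dose, and Pck1 in rat after either schedule.

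Glucose-6-phosphatase itself, measured as G6pc in mouse, varied more between arrays. With repeated doses the oil ratios were 0.748, 0.589, 1.662 and 1.252 and the TCE ratios 0.63, 0.642, 0.697 and 0.337. The groups overlapped, with 1 of the 4 TCE arrays below all oil arrays. The change was -0.82 ± 0.33 (95% interval -1.51 to -0.12, adjusted p = 0.119). After 1 dose the TCE ratios of 0.61 to 1.086 overlapped the oil ratios of 0.863 to 1.296, and the change was -0.23 ± 0.33 (adjusted p = 0.717). With the Gapdh value as a covariate the single-dose estimate was 0.01, so its sign is not settled.

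Pck1, the enzyme that commits carbon to glucose production, fell in rat liver after both schedules. After 1 dose the oil ratios were 1.008, 0.756, 1.951 and 0.992, and the TCE ratios were 0.575, 0.419, 0.393 and 0.319. After repeated doses the oil ratios were 0.933, 1.067, 1.089 and 0.719 and the TCE ratios 0.566, 0.24, 0.22 and 0.304. In each schedule all 4 TCE arrays lay below all 4 oil arrays. The changes were -1.40 ± 0.33 after 1 dose (0.378 of oil, adjusted p = 0.048) and -1.61 ± 0.33 after repeated doses (0.329 of oil, adjusted p = 0.0185). The schedules differed by -0.20 ± 0.47 (95% interval -1.20 to 0.79, adjusted p = 0.899), an interval that leaves a difference in either direction possible.

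Both Pck1 calls were near the threshold. The single-dose call was lost whichever of the 8 arrays was left out (adjusted p 0.0669 to 0.117), including oil array 3, where pancreas and muscle transcripts were high and Pck1 was at its highest: without it the change was -1.13 (adjusted p = 0.0703). The repeated-dose call was lost without oil 1 (adjusted p = 0.0523) or TCE 2 (adjusted p = 0.0623). TCE arrays 3 and 4 of that schedule, those with 5' loss, read 0.22 and 0.304, and the other 2 read 0.24 and 0.566. With the Gapdh value as a covariate the repeated-dose change was -1.21 (adjusted p = 0.12) and the single-dose change -1.29 (adjusted p = 0.0407). Without the rat arrays of 5' loss neither passed, at -1.35 (adjusted p = 0.128) and -1.27 (adjusted p = 0.12). Kidney markers, counted because kidney also expresses Pck1, had 0 of 7 genes passing in rat after either schedule, with overlapping ranges of their mean log2 ratio on oil (-0.24 to 0.39) and TCE arrays (-0.21 to 0.14).

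Together, 3 of 6 rat members passed as lower after 1 dose, when 0.503% of all rat probe sets were called lower, and these 3 are 2 genes. After repeated doses 1 of 6 passed as lower, against 0.652% of all. The groups did not overlap for 4 rat members lower on TCE arrays after 1 dose (3.72% of all) and for 2 after repeated doses (4.79% of all). In mouse they did not overlap for 1 lower member after 1 dose and 3 after repeated doses, against 9.62% and 12.4% of all. The median over members was -0.27 and -0.79 in mouse and -0.68 and -0.08 in rat, after single and repeated doses.

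Mouse Pck1 gave lower estimates that did not pass. After 1 dose the oil ratios were 1.134, 0.866, 1.876 and 0.648 and the TCE ratios 0.546, 0.955, 0.661 and 0.49. The repeated-dose oil ratios were 0.953, 1.047, 1.614 and 0.858 and the TCE ratios 0.704, 0.488, 0.595 and 0.564. The groups overlapped after 1 dose and not after repeated doses. The changes were -0.71 ± 0.31 (adjusted p = 0.177) and -0.90 ± 0.31 (adjusted p = 0.076). In each schedule the TCE array without 5' loss had the highest ratio of the 4, 0.955 and 0.704. With the Gapdh value as a covariate the changes were -0.29 (adjusted p = 0.766) and -0.69 (adjusted p = 0.161), and without the arrays of 5' loss, which leaves 1 TCE array in each schedule, they were -0.13 (adjusted p = 0.957) and -0.69 (adjusted p = 0.616). Without oil array 3, at 1.876, the single-dose change was -0.42 (adjusted p = 0.423). The repeated-dose change passed in 1 alternative, the test without the noisiest 40% of probe sets (adjusted p = 0.0283). The mouse Pck1 estimates were less negative than those of rat. Mouse minus rat was 0.70 ± 0.46 after 1 dose (95% interval -0.24 to 1.63, adjusted p = 0.388). After repeated doses it was 0.71 ± 0.46 (95% interval -0.22 to 1.64, adjusted p = 0.331). A difference between the species was thus not detectable with this number of arrays.

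**Figure D3:**
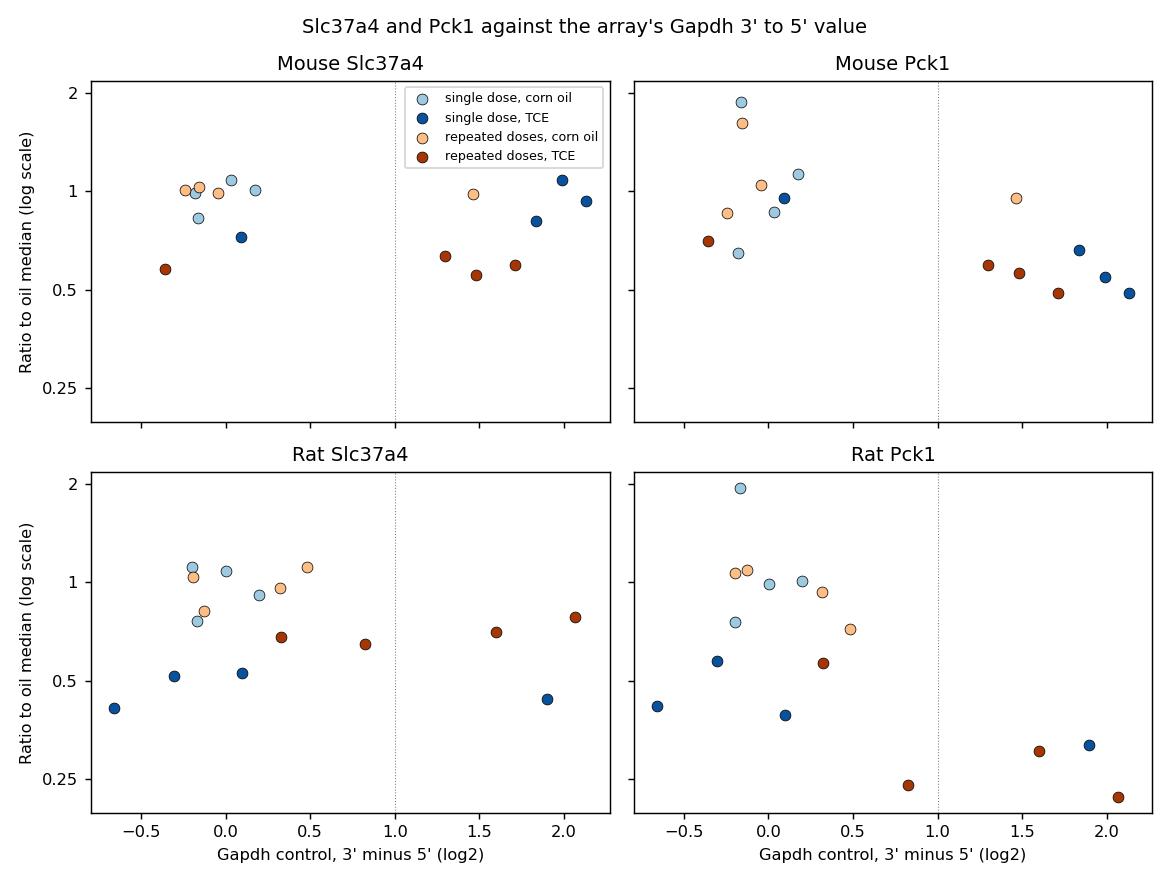
Ratio of Slc37a4 and Pck1 to the oil median (log axis) on each array against the log2 value of the Gapdh control's 3' end minus its 5' end; the dotted line marks 1. Mouse repeated-dose Slc37a4 reads 0.58 on the TCE array left of the line and 0.556 to 0.636 on those right of it, while mouse Pck1 is highest on the TCE array left of the line in each schedule.

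Fbp1, which removes a phosphate from fructose 1,6-bisphosphate, passed in no comparison. In mouse its single-dose oil ratios were 1.019, 0.981, 0.949 and 1.03 and its TCE ratios 0.775, 0.691, 0.888 and 0.879. The groups did not overlap, with a change of -0.31 ± 0.16 (adjusted p = 0.25). It was -0.60 (adjusted p = 0.0567) with the Gapdh value as a covariate, -0.52 (adjusted p = 0.356) without the arrays of 5' loss and -0.15 (adjusted p = 0.884) with quantile normalization. The repeated-dose oil ratios of 0.886 to 1.405 again lay above the TCE ratios of 0.671 to 0.81, with -0.48 ± 0.16 (adjusted p = 0.0647, and 0.00908 with the Gapdh value as a covariate, which gave -0.63). Apart from leaving out 1 array, this repeated-dose change passed in 2 of 9 alternatives. With quantile normalization it did not (adjusted p = 0.739). In rat the TCE ratios were 0.645, 0.72, 0.808 and 0.768 after 1 dose, all below the oil range of 0.87 to 1.141. After repeated doses they were 1.129, 0.941, 1.132 and 1.377, within or above the oil ratios of 1.295, 1.024, 0.405 and 0.976. The rat changes were -0.44 ± 0.28 (adjusted p = 0.409) and 0.41 ± 0.28 (adjusted p = 0.458), and their difference was 0.86 ± 0.40 (adjusted p = 0.526). Without repeated-dose oil array 3, at 0.405, the repeated-dose change was 0.06 (adjusted p = 0.907) and the difference 0.50 (adjusted p = 0.699).

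With repeated doses the mouse Fbp1 effect was lower than the rat effect by -0.89 ± 0.32 (95% interval -1.55 to -0.24, adjusted p = 0.0727), a contrast that rested in part on single rat oil arrays. It was -0.53 (adjusted p = 0.138) without oil array 3, where Fbp1 read 0.405, and -1.09 (adjusted p = 0.026) without oil array 1. After 1 dose the species differed by 0.14 ± 0.32 (95% interval -0.52 to 0.79).

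The glycogen members Gys2 and Pygl were measured in rat alone. Gys2, liver glycogen synthase, read 1.136, 0.939, 0.678 and 1.061 on single-dose oil arrays and 1.365, 1.278, 1.215 and 1.214 on TCE arrays. These groups did not overlap, as for 8.78% of all rat probe sets higher on TCE arrays, and the change was 0.44 ± 0.22 (adjusted p = 0.287). Without oil array 3 it was 0.28 (adjusted p = 0.462). On repeated-dose arrays the oil ratios were 0.945, 0.915, 1.055 and 1.66 and the TCE ratios 1.665, 2.058, 1.547 and 1.455, overlapping through oil array 4. The change was 0.59 ± 0.22, or 1.5-fold (95% interval 0.12 to 1.05, adjusted p = 0.153). Over the 16 rat arrays Gys2 and Pck1 ratios ran opposite (Pearson r = -0.775), a description over arrays that share treatment and scaling.

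Pygl, which releases glucose 1-phosphate from glycogen, stayed close to its oil values. Its TCE ratios were 0.955, 0.936, 0.956 and 1.122 after 1 dose, inside the oil range of 0.567 to 1.17, and 1.286, 1.005, 1.09 and 1.23 after repeated doses against 0.946 to 1.055. The changes were 0.13 ± 0.20 (95% interval -0.30 to 0.56) and 0.20 ± 0.20 (95% interval -0.23 to 0.63), with adjusted p = 0.748 and 0.642. Without oil array 3, the lowest at 0.567, the single-dose estimate was -0.09.

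Genes whose ratios ran most like a member's over the 16 arrays of a species were named by Pearson r, without a test, since treatment, RNA quality and scaling are shared. In mouse, Slc37a4 ran closest to Dynll2 and Hc (r = 0.93 each), Pck1 to Gfus (0.835) and Pfn1 (0.823), Fbp1 to Car3 (0.965) and Cyb5a (0.95), and G6pc to Utp4 (0.845) and Manf (0.81). In rat, Slc37a4 ran closest to Cyb5r3 (0.95) and Cox4i1 (0.93), Pck1 to Gpr182 (0.88) and Plg (0.87), and Fbp1 to Slc25a1 (0.94) and Crip2 (0.93). Gys2 ran closest to Maea and Tsr2 (0.87 each), and Pygl to Ptk2 and Gfm1 (0.86 each). Between members, mouse Slc37a4 had r = 0.65 with G6pc, with which it works as a pair, 0.627 with Fbp1 and 0.374 with Pck1. Rat Slc37a4 had r = 0.545 with Pck1, 0.376 with Fbp1, 0.006 with Pygl and -0.29 with Gys2.

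The other genes of the pathway came from lists of their role. Of 11 other gluconeogenesis genes measured in mouse, 0 passed after 1 dose. After repeated doses 1 passed as higher, beside 2.24% of all mouse probe sets. It was Got2 (mitochondrial aspartate aminotransferase), higher by 0.57 ± 0.16 (adjusted p = 0.0347). Its estimate after 1 dose went the other way, at -0.43 ± 0.16 (adjusted p = 0.106). Of 10 in rat 0 passed after either schedule. Where none passed, the 2 largest estimates were as follows. After 1 dose in mouse they were -1.06 ± 0.54 for Pck2, the mitochondrial counterpart of Pck1 (adjusted p = 0.25), and -0.71 ± 0.23 for Slc2a2, the glucose transporter of the hepatocyte surface (adjusted p = 0.0706). In rat, pyruvate carboxylase (Pc), which makes the oxaloacetate that Pck1 uses, was at -0.62 ± 0.21 and -0.59 ± 0.21 after single and repeated doses (adjusted p = 0.125 and 0.127). It stood beside the alanine aminotransferase Gpt after 1 dose (-0.79 ± 0.25, adjusted p = 0.105) and the muscle-type bisphosphatase Fbp2 after repeated doses (0.62 ± 0.24, adjusted p = 0.175). List medians were -0.15 and -0.01 in mouse and -0.24 and 0.21 in rat, beside -0.09, -0.15, 0.14 and 0.04 over all probe sets.

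Mouse pyruvate carboxylase is also a control on the array, with 4 probe sets along the transcript. After 1 dose its 3' probe set read 0.531, 0.494 and 0.531 on the TCE arrays with 5' loss and 0.947 on the other. Its 5' probe set read 0.103, 0.167 and 0.162 against 0.724. After repeated doses the 3' probe set read 0.599, 0.698 and 0.606 against 0.98 on the TCE array without 5' loss. On the repeated-dose oil array with 5' loss the 5' probe set read 0.318 and the 3' probe set 0.874.

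Of 18 other glycogen genes in mouse, 2 rose and 1 fell after 1 dose, beside 4.16% higher and 4.14% lower among all mouse probe sets: the branching enzyme Gbe1 rose by 0.999 ± 0.21 (adjusted p = 0.0116), the kinase Gsk3a, which inhibits glycogen synthase, by 0.99 ± 0.19 (adjusted p = 0.00742), and the muscle phosphorylase Pygm fell by 2.80 ± 0.78 (adjusted p = 0.0414). Skeletal muscle markers varied widely on these arrays, with mean log2 ratios from -2.07 to 0.94 on oil and from -2.34 to 0.36 on TCE arrays, and their part in the Pygm value was not tested. After repeated doses 1 rose and 1 fell, beside 2.24% higher and 8.48% lower among all mouse probe sets. The muscle-type synthase Gys1 rose by 0.71 ± 0.18 (adjusted p = 0.0238) and the brain-type phosphorylase Pygb fell by 1.44 ± 0.42 (adjusted p = 0.0422). Counts this small do not set the list apart from all probe sets. In rat 0 of 13 passed after either schedule. The largest rat estimates were those of Ppp1r3b, a glycogen-targeting phosphatase subunit (1.47 ± 1.27 and -2.42 ± 1.27, adjusted p = 0.555 and 0.314), and of Phka1, a phosphorylase kinase subunit (0.87 ± 0.33 and -0.73 ± 0.33, adjusted p = 0.171 and 0.246). The medians were -0.31 and 0.06 in mouse and 0.095 and -0.039 in rat.

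Glycolysis, the opposing pathway, had 2 of 18 genes lower in mouse after each schedule, beside 4.14% and 8.48% of all mouse probe sets called lower after single and repeated doses. Counts this small do not set the list apart from that background. Pklr, liver pyruvate kinase, fell by 1.24 ± 0.29 after 1 dose (adjusted p = 0.019) and by 1.21 ± 0.29 after repeated doses (adjusted p = 0.0194). Pfkm, muscle-type phosphofructokinase, fell by 0.69 ± 0.17 after 1 dose (adjusted p = 0.0232) and the hexokinase Hk1 by 0.83 ± 0.21 after repeated doses (adjusted p = 0.0225). In rat 0 of 18 passed after either schedule. The largest rat estimates after 1 dose were -1.41 ± 0.66 for the lactate dehydrogenase subunit Ldhb (adjusted p = 0.259) and -0.87 ± 0.38 for the pyruvate kinase Pkm (adjusted p = 0.23). With repeated doses they were -1.95 ± 0.52 for the aldolase Aldoa (adjusted p = 0.0577) and 1.04 ± 0.66 for Ldhb (adjusted p = 0.418). The medians were -0.22 and -0.26 in mouse and -0.05 and -0.08 in rat.

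Among 28 regulators of the fasting programme in mouse, 1 rose and 1 fell after 1 dose. Of all mouse probe sets 4.16% were then called higher and 4.14% lower. Ppara, the fatty acid sensing receptor, rose by 0.56 ± 0.14 (adjusted p = 0.0271). Nr0b2, a repressor of nuclear receptors, fell by 1.08 ± 0.29 (adjusted p = 0.033). After repeated doses 3 fell and 0 rose, a share near the 8.48% of all mouse probe sets called lower. They were the kinase Akt1 of insulin signalling by 0.68 ± 0.16 (adjusted p = 0.0186), Prkar1a, a regulatory subunit of the cAMP-dependent kinase, by 0.55 ± 0.13 (adjusted p = 0.0201), and Tat, a glucocorticoid-induced aminotransferase, by 0.59 ± 0.18 (adjusted p = 0.0488). Of 27 in rat, 0 passed after 1 dose, when the largest estimates were 1.25 ± 0.53 for the pyruvate dehydrogenase kinase Pdk4 (adjusted p = 0.215) and -0.97 ± 0.28 for Nr0b2 (adjusted p = 0.0882). Akt2, a kinase of insulin signalling, fell by 1.72 ± 0.43 after repeated doses (adjusted p = 0.0484), when 0.652% of all rat probe sets were called lower. The list medians were -0.18 and -0.46 in mouse and 0.0014 and 0.03 in rat.

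**Figure D4:**
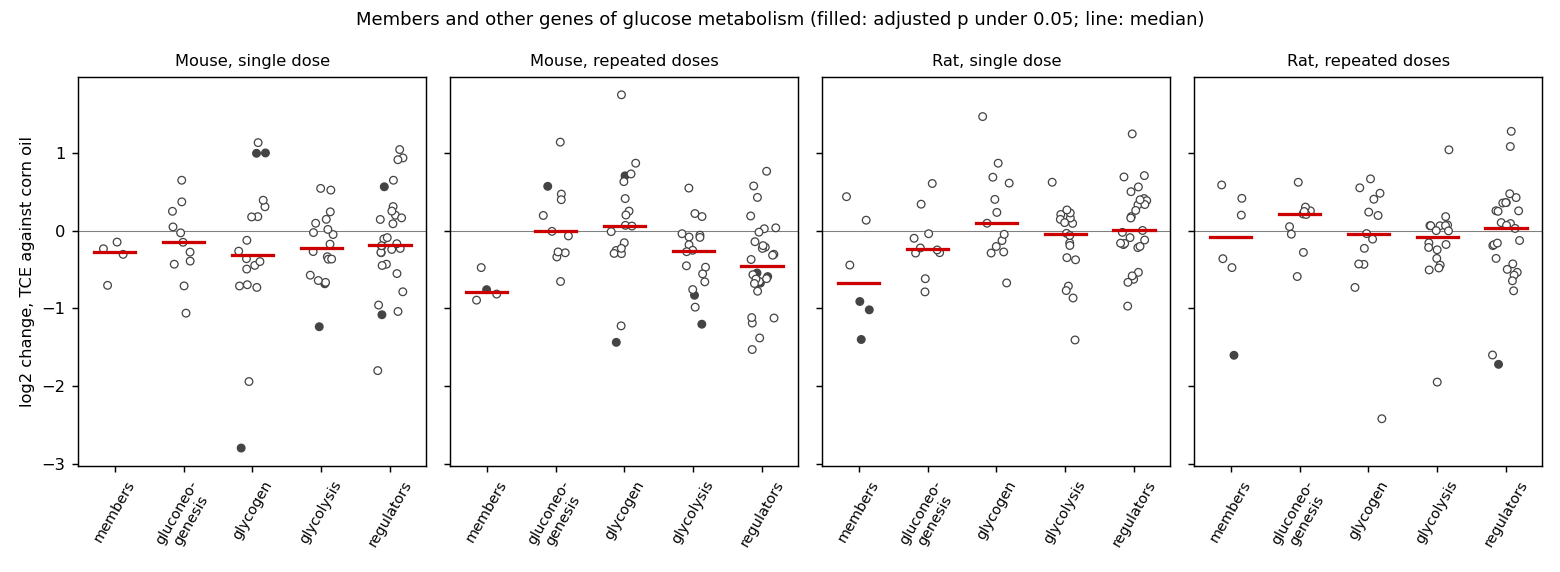
Log2 change, TCE against corn oil, of the member probe sets and of the other measured genes of 4 glucose metabolism lists, by species and schedule; each point is 1 probe set, filled points have an adjusted p under 0.05, and lines are list medians. Filled points among rat genes are members, apart from Akt2 after repeated doses.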

How the data were processed

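Liver RNA of 32 samples was hybridised to Affymetrix arrays. Per the submitters' processing notes the signals were made with MAS5, of a version not given in the sources used here. The deposited values are ratios: for each probe set the 4 oil arrays of a schedule and species have a median of 1 (within 0.002), as tested on the values, so array depth and background are unknown and the number of arrays limits precision. Control probe sets (66 mouse, 59 rat) were left out of the tests. Log2 ratios were fitted with limma 3.58.1 (lmFit and eBayes, R 4.3.3) on the 16 arrays of a species with group means, and p-values were adjusted by Benjamini-Hochberg over the whole table, with a threshold of 0.05. Species were compared over 3056 shared symbols on 32 arrays, taking for each the probe set with the smallest pooled SD. Probe sets were named by the platform annotation where it gives 1 symbol. The fit was tested on simulated data.

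The members and lists were chosen with earlier results of these data known. All members were named, with the 2 genes most like each over 16 arrays, and from each pathway list the genes that passed or, where none did, the 2 largest changes. The pyruvate carboxylase control was added after its values were seen. Alternatives were normalization, centring, a pseudocount, a noise filter, array weights, a Gapdh covariate, samples used, the replicate number and each array left out.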

Additional observations from a re-analysis of the deposited data

Results flagged for a closer look

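In 56 groups of 4 arrays, 5 held an array far from the other 3, 2 of them among 40 member groups; chance gives about 1 in 20. G6pc on mouse repeated-dose TCE array 4 read 0.337 against 0.63 to 0.697 on the others. Pygl on rat single-dose TCE array 4 read 1.122 against 0.936 to 0.956. The Gapdh 3' minus 5' value (log2) was 0.0935 on mouse single-dose TCE array 2 against 1.84 to 2.13, and 1.46 on mouse repeated-dose oil array 1 against -0.24 to -0.05. The same value for actin was 0.994 on rat single-dose TCE array 4 against -0.21 to -0.12.

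The species differed in the Slc37a4 effect after 1 dose by 0.87 ± 0.21 (mouse minus rat, limma adjusted p = 0.014).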

How the results depend on the processing

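Counts of called features were compared with 1031, 1331 and 109 in mouse (single, repeated, schedule difference), 150, 246 and 0 in rat, and 129 and 321 between species. Quantile normalization gave 59, 7, 0, 2, 7, 0, 7 and 6. Leaving out arrays with a Gapdh value above 1 gave 18, 58, 0, 29, 133, 1, 36 and 160. The Gapdh covariate gave 278 (mouse single), 183 (mouse schedule), 256 and 72 (rat single, repeated). Array weights gave 1550, 222, 417, 434 and 263 (mouse single, mouse schedule, rat single, rat repeated, species single). log2(value + 1) gave 306 (mouse schedule), 234, 392 and 6 (rat). Fitting only the arrays of a comparison gave 388 (mouse repeated), 69 and 106 (rat). Without the noisiest 40% the counts were 672 (mouse schedule), 441, 526 and 5 (rat). Leaving out 1 array gave 519 to 1187, 687 to 1271, 21 to 118, 22 to 128, 100 to 316, 0 to 1, 81 to 181 and 254 to 361. The causes were not tested.

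Same-numbered arrays correlated at -0.173 to 0.0784, none over 0.1, so they were not treated as pairs. In the mouse single-dose groups all 4 arrays correlated best with their own number (0.0512 to 0.0766), a hint from the data and not the design. With the replicate number as a block the counts were 190, 264, 0, 8, 42, 1, 55 and 180, and no member passed (Slc37a4 adjusted p 0.0569 in mouse, 0.12 and 0.124 in rat, 0.0946 between species; rat Pck1 0.154 and 0.0836).

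Fitting only a comparison's own arrays left mouse Slc37a4 called (adjusted p = 0.0371) and no rat member (0.0607 to 0.083). Signs turned for uncalled values near 0. The schedule difference of rat Pck1 was 0.055 (quantile), 0.030 (log2(value + 1)) and 0.0853 (covariate), and that of rat Gys2 -0.00059 (quantile). Mouse single-dose G6pc was 0.0142 (covariate). The species difference of single-dose Fbp1 was -0.0744 (covariate) and -0.0581 without high-Gapdh arrays, which gave 0.0103 for its mouse schedule difference. Leaving out 1 array gave -0.472 to 0.0395 (mouse Pck1 schedule difference), -0.0596 to 0.289 (rat Pygl schedule difference) and -0.0898 to 0.259 (rat Pygl, single dose).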
